A study of Homo sapiens with 8 samples.

Results

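Interferon-stimulated and antigen presentation genes were followed through nascent RNA of IMR90 cells treated with inflachromene (ICM). The members were 47 gene names matched exactly to the gene identifiers of the count tables, and 46 of them were found among the 28265 genes counted (PSMB9-AS1 was not analysed here). IMR90 is a human fetal lung fibroblast strain, and ICM is a small molecule that binds the chromatin proteins HMGB1 and HMGB2. Factory RNA-Seq, which sequences the nascent transcripts still held at clusters of working polymerases in the nucleus, was run on low-passage wild-type cells (labelled young, here control), on cells kept in ICM for 3 days or for 6 days, and on cells labelled MetaICM, with 2 libraries in each of the 4 conditions. The sources used here do not say what MetaICM is or whether the control cells received solvent. All cells were of the same strain, and no source says that the 2 libraries of a condition came from separate cultures, so the p-values below measure the spread between these libraries, which may be technical. Library labels name poly(A) selection and whole-cell lysis, whereas the study describes nascent factory RNA. Totals ran from 12095123 to 23166405 counted read pairs per library. Values are CPM, the usual depth-scaled unit of read pairs relative to the library total, adjusted between libraries by TMM. Fold changes come from edgeR's quasi-likelihood test, apart from ratios and lower bounds taken from read counts where reads were few. A gene was called where its Benjamini-Hochberg adjusted p over all genes tested was under 0.05 and its log2 fold change exceeded 0.6 in size.

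Cells that sense foreign or misplaced nucleic acid secrete interferons, which bind surface receptors and act through JAK kinases. Type I interferon drives a complex that holds STAT2 and IRF9 onto the interferon-stimulated response element (ISRE), and interferon gamma acts through the gamma-activated site (GAS). The genes switched on include RNA-degrading, RNA-sensing and membrane-acting antiviral proteins, and the peptide-loading and display apparatus of MHC class I. Fibroblasts carry these receptors, keep a basal level of many such genes and can raise them during senescence.

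The promoters of the members were inspected for the motifs these factors read. Of the 46 members, 37 had a window of 300 bases in the RefSeq promoter table (build GRCh38.p14), reaching from 250 bases before the annotated start to 50 bases from the start on, and 36 of these windows were found once and whole in GRCh37, the build of the counts. The ISRE core was searched as the letters GAAA, any 2 bases and GAAA again, on both strands. It was present in 23 of the 37 windows (62.2%), against 3.57% of all 35116 promoters of that length. GAS was searched as TTC, any 3 bases and GAA, a motif that reads alike on both strands. It was present in 9 of the 37 windows (24.3%), against 7.66% of all promoters, and 5 members held both motifs.

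Upstream stretches of 250 bases are shown for 6 members, chosen with their values known, whose levels separated the conditions clearly or that stand for a role group, with each ISRE core match in capitals (on the reverse strand in GBP1). They lie directly before the start of IFI44L (chr1:79085883-79086132, plus strand), OAS3 (chr12:113376029-113376278, plus strand), IFI6 (chr1:27998704-27998953, minus strand), GBP1 (chr1:89530892-89531141, minus strand), B2M (chr15:45003465-45003714, plus strand) and HLA-B (chr6:31324957-31325206, minus strand), with GRCh37 coordinates.
IFI44L: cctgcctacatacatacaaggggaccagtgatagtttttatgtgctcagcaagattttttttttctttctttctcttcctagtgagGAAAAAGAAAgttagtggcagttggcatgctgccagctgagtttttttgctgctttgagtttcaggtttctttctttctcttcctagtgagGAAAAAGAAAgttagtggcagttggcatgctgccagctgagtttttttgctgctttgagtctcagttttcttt
OAS3: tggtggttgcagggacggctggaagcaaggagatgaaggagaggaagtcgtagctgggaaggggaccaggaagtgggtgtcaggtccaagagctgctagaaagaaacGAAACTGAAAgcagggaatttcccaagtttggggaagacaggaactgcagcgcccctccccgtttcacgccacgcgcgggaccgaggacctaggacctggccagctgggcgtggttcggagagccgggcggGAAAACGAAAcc
IFI6: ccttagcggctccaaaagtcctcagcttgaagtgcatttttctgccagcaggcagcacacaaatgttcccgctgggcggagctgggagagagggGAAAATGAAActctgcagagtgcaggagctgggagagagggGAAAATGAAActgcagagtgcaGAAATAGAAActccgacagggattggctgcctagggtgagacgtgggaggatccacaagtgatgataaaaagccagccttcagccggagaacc
GBP1: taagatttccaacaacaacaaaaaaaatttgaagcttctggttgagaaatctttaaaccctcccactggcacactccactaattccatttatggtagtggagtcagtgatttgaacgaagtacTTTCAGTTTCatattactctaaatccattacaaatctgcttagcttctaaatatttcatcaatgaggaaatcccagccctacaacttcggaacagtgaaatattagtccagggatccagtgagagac
B2M: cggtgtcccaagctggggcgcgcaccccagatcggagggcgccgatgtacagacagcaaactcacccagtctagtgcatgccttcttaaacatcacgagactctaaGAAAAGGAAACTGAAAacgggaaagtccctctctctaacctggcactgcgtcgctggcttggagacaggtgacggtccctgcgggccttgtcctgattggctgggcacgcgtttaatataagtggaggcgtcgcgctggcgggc
HLA-B: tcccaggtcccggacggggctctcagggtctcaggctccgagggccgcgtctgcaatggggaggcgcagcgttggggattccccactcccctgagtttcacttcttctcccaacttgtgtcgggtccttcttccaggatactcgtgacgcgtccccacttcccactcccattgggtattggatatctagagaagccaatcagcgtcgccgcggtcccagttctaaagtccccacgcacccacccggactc
In IFI44L both matches sat inside a stretch of 85 bases that occurs 2 times without any difference in letters, and the longest repeat upstream of IFI6 was 29 bases. The matches of B2M overlapped each other. No ISRE core or GAS was in these letters of HLA-B, which says nothing of the factors themselves.

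**Figure D1:**
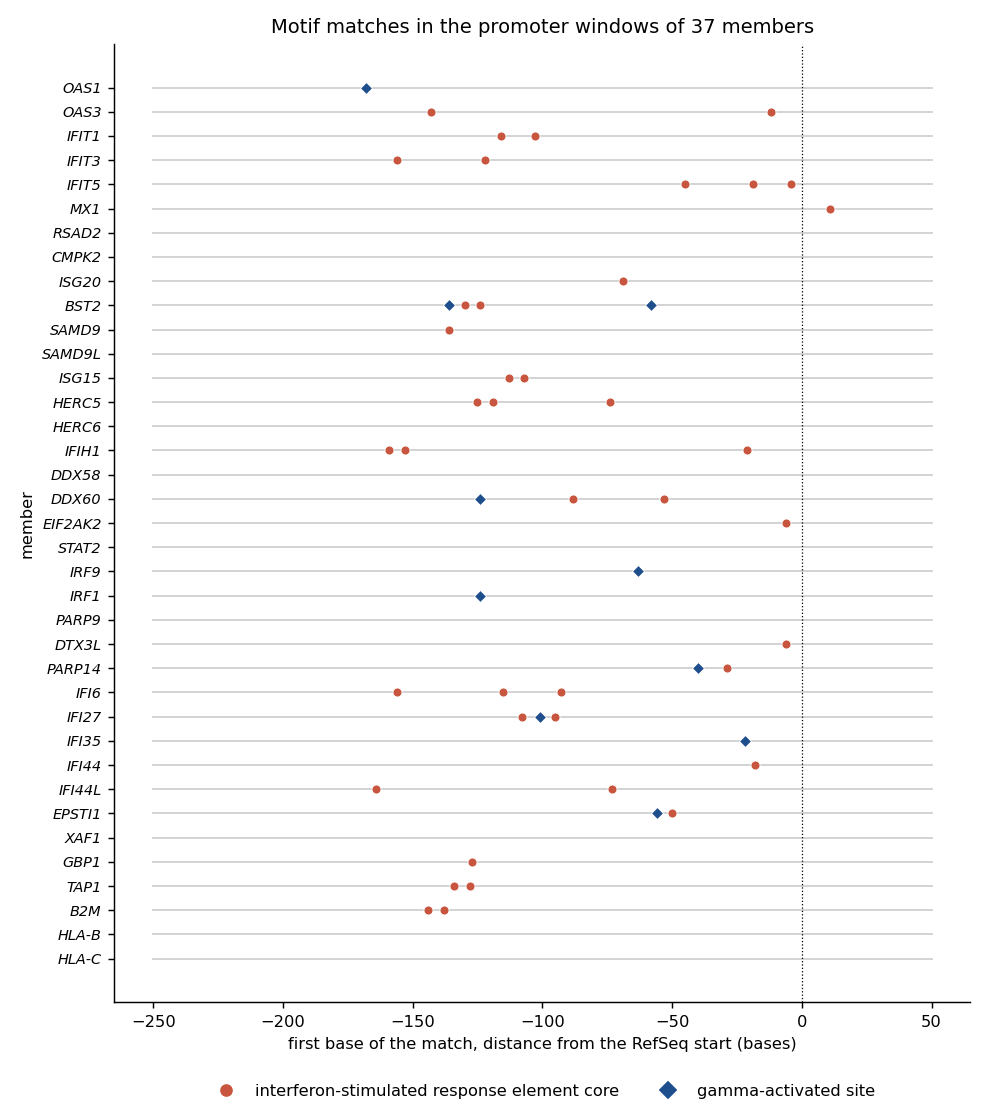
Each row is a promoter window of 1 of the 37 members in the RefSeq table, and each mark is the first base of an ISRE core (circle) or GAS (diamond) match, by its distance in bases from the annotated start. Of 41 ISRE core matches, 40 began before the start, the farthest 164 bases (-164) before it, and MX1 held the match that began after it (11).

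The ISRE core was found among members called in either direction. At 3 days it was present in 5 of the 8 members called higher that had a window and in 2 of the 4 called lower. At 6 days the counts were 4 of 6 higher and 5 of 7 lower. In MetaICM against control the motif was present in 6 of 9 higher members and in 14 of 22 that were not called.

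Of the 46 members, 41 had at least 10 counts in each library of a condition. In all, 31 of the 42 tested in any of the 6 comparisons were called in at least 1 of them (73.8%, against 49.7% of the 16638 genes tested in any). The other 11 were called in none (IFIT1, IFIT5, IFIH1, DDX58, EIF2AK2, STAT2, IRF9, DTX3L, PARP14, IFI27 and HLA-E), and 4 had too few reads to be tested in any (OAS1, RSAD2, CMPK2 and BST2). The filter kept a gene with enough reads in the higher condition alone, so counts of calls cover the members tested and not all 46.

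After 3 days of ICM, 10 of 39 members tested were higher than in control (25.6%, against 8.85% of all genes) and 4 were lower (10.3%, against 13.2%), with a median log2 fold change of 0.25 beside 0.01 for all genes. Following 6 days, 9 of 38 were higher (23.7%, against 13.3%) and 8 were lower (21.1%, against 17.2%), with a median of 0.05. Between the treatment times, 1 of 39 was higher at 6 days than at 3 days (2.56%, against 3.53%) and 7 were lower (17.9%, against 4.54%), with a median of -0.25. The shares of lower calls against control were near those of all genes, and the calls between 3 and 6 days were mostly decreases. HERC5, among these 7 decreases, was kept by the filter through its 3-day reads and could not have been called higher. The higher calls at 6 days depended on the fit: 5 were made by DESeq2 (13.2%, against 11.5% of all genes), 5 without 6-day replicate 1 (13.2%, against 10.1%) and 4 without 6-day replicate 2 (10.3%, against 10.5%). At 3 days DESeq2 made 6 (15.4%, against 7.23%), as did the fit without 3-day replicate 1 (15.4%, against 5.28%), and 2 lower calls were left without 3-day replicate 2 (5.13%, against 10.4%).

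In MetaICM, 15 of 40 members tested were higher than in control (37.5%, against 7.41% of all genes) and 0 were lower, against 8.99% of all genes. By edgeR, 3 members had a negative fold change at an unadjusted p under 0.05, and DESeq2 called 0 lower. Against 6 days of ICM, 20 of 41 were higher in MetaICM (48.8%, against 15.7%) and 2 were lower (4.88%, against 12%). Against 3 days, 11 of 41 were higher (26.8%, against 13.1%) and 3 lower (7.32%, against 10.3%). Medians were 0.47, 0.57 and 0.12 in these comparisons, also with the low-count genes set at their bound. Comparisons that share libraries are not independent of each other. OAS2 and OASL, tested only where MetaICM was compared, were among the higher calls in all of these comparisons and could not have been called lower. Highest mean CPM fell in MetaICM for 27 of the 46 members, at 3 days for 11, at 6 days for 6 and in control for 2 (GBP1 and GBP2).

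**Figure D2:**
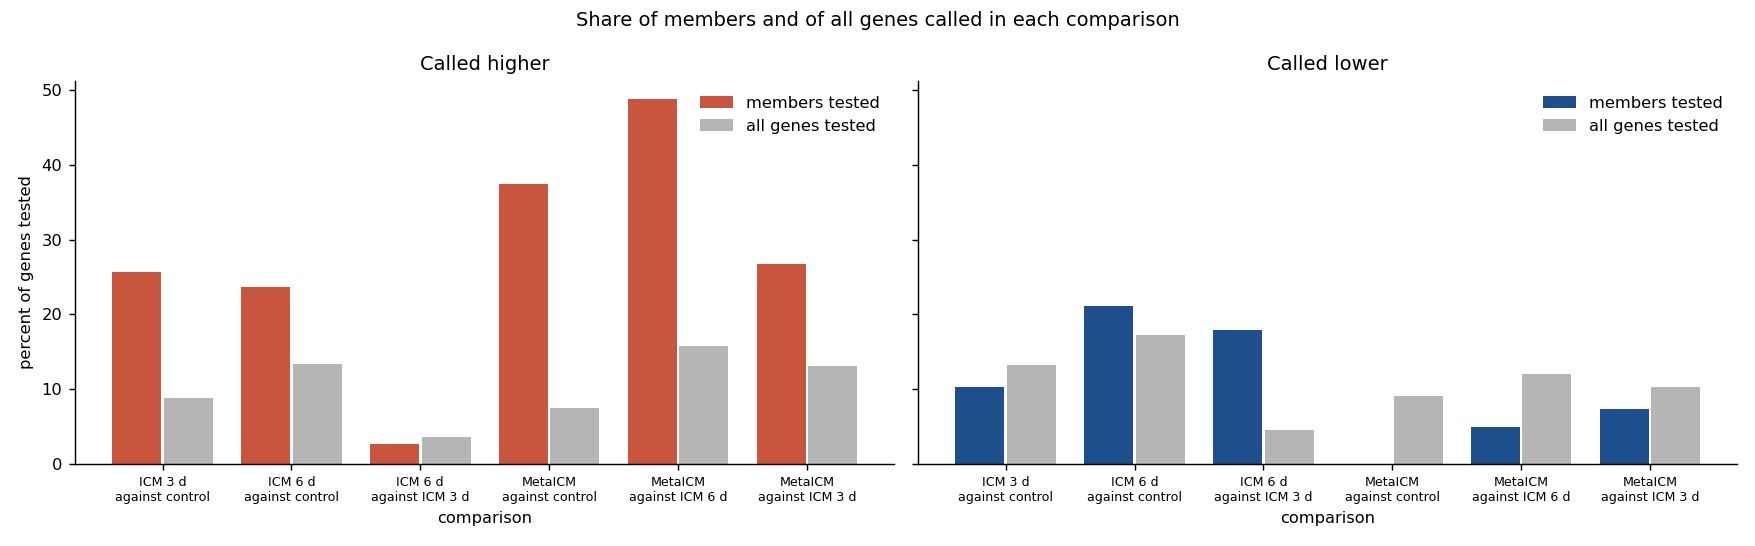
Bars give the percent of genes called higher (left) and lower (right) in each of the 6 comparisons, for the members tested (coloured) and for all genes tested (grey). In MetaICM the members' share of higher calls was 37.5% against control and 48.8% against 6 days of ICM, and the share of lower calls was 0 against control.

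**Figure D3:**
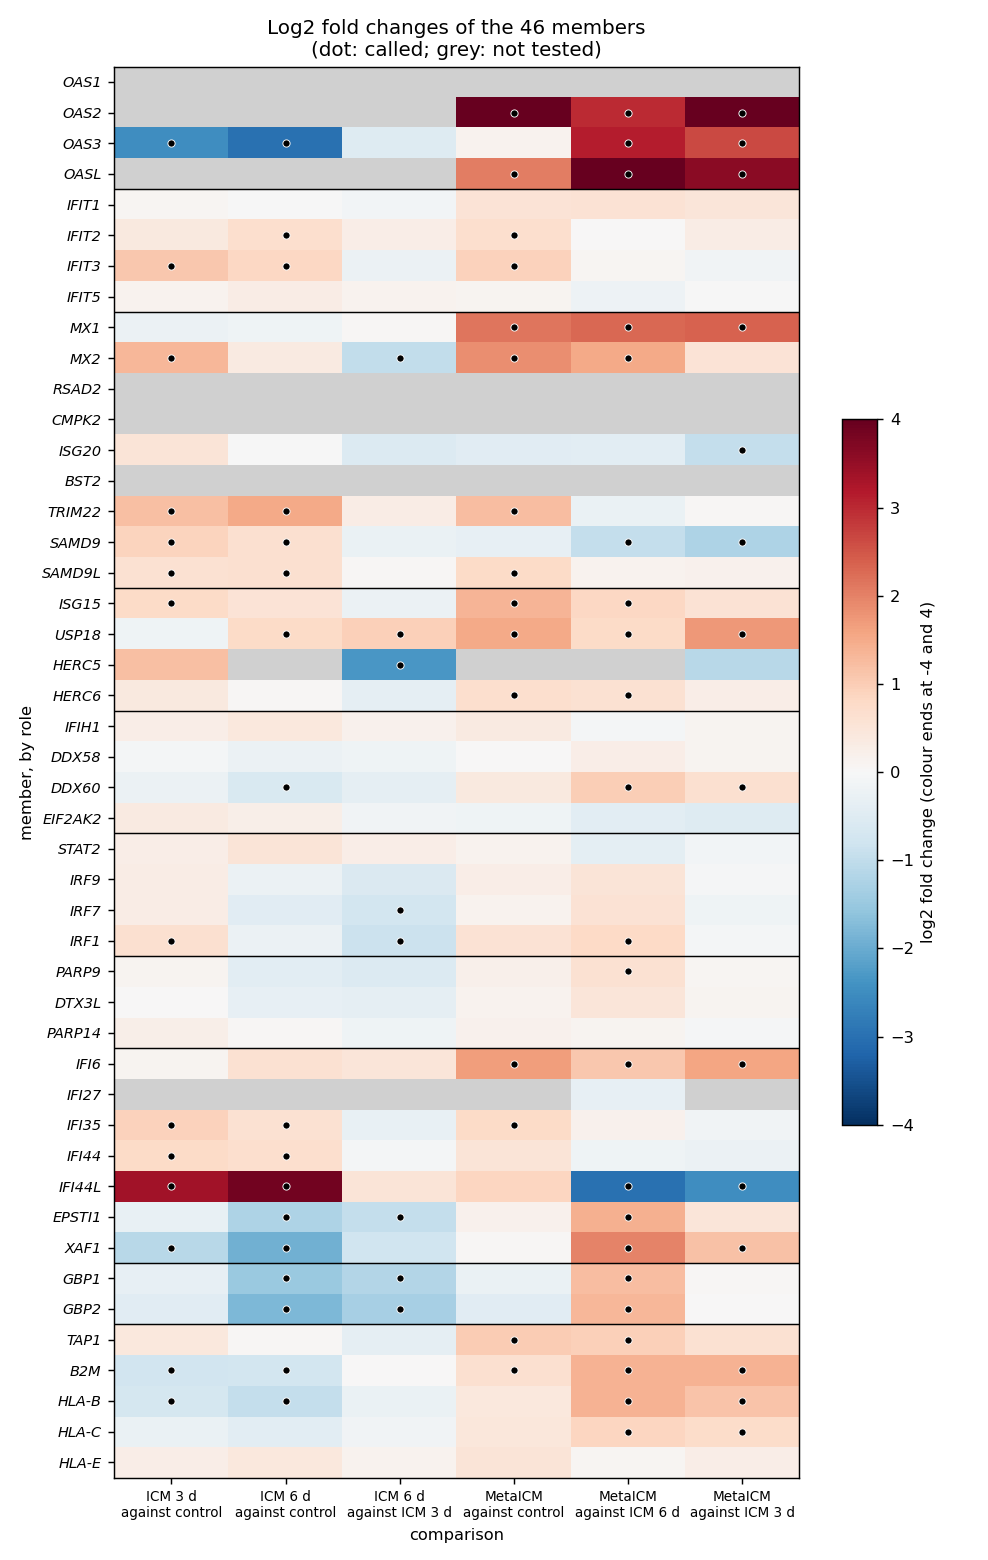
Rows are the 46 members grouped by role, columns are the 6 comparisons, and colour is the log2 fold change, with dots on calls and grey where a gene was not tested. IFI44L (3.35 and 3.85) and OAS3 (-2.49 and -3.00) stood at the ends of the scale in the ICM columns against control. Colours end at -4 and 4, and the fitted values of OAS2 and OASL rest on libraries with few or no reads.

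Markers of the cell type moved with part of these genes. The 12 fibroblast markers summed to 23310 to 23871 CPM in control, 13365 to 15198 at 3 days, 11702 to 12119 at 6 days and 20985 to 22007 in MetaICM, and were thus lower under ICM than in control and MetaICM, as OAS3, XAF1, B2M and HLA-B also were. The sum is dominated by collagen genes, and COL1A1 went from 8089 and 8714 in control to 1894 and 1874 at 6 days. Not every marker fell: 7 of 12 tested were lower and 1 higher at 3 days and 6 of 11 lower and 1 higher at 6 days, P4HB being the higher one (log2 fold changes 0.60 and 0.86), while COL3A1 was not called (-0.10 and -0.08). Leukocyte markers, which could carry class I and interferon genes from other cells, summed to 7.95 to 8.63 CPM in control, 20.8 to 25.2 at 3 days, 20.3 to 24.8 at 6 days and 17.2 to 17.5 in MetaICM, most of it CD68, while CD3E was at 0 in every library and PTPRC (CD45) was at most 1.29. Epithelial markers summed to 67.3 to 103, 36.6 to 36.7, 35.1 to 37.2 and 66.6 to 69.8 CPM in the same order. Most of this was KRT18, and EPCAM was at most 0.546. KRT18 and KRT19 were called lower than control at 3 days (log2 fold changes -1.27 and -3.11) and 6 days (-1.33 and -4.37). Both were higher in MetaICM than at 6 days (0.88 and 5.01), and neither was called in MetaICM against control. KRT8 was not called in these comparisons. Endothelial markers summed to 185 to 193, 129 to 135, 165 to 198 and 222 to 235 CPM. Nearly all of that was TEK, with CDH5 at most 0.0819. The part of all these markers in the members' changes was not tested. In bulk RNA such as this, fewer cells that express a gene and less RNA per cell cannot be told apart.

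The OAS family senses double-stranded RNA and makes the 2-5A messenger, and OAS3 was its one well-expressed member outside MetaICM. OAS3 had 21.1 and 21.5 CPM in the control libraries, 2.84 and 4.92 at 3 days, 3.28 and 2.07 at 6 days, and 23.5 and 23.7 in MetaICM. Every ICM library was below every control and MetaICM library, and the latter were close together. OAS3 was 5.63-fold lower at 3 days (log2 fold change -2.49, SE 0.24, adjusted p = 1.08e-05) and 8-fold lower at 6 days (-3.00, SE 0.22, adjusted p = 2.51e-06). It was 8.79-fold higher in MetaICM than at 6 days (3.14, SE 0.16, adjusted p = 6.61e-13), and its 0.14 against control was not called.

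OAS2 was near 0 outside MetaICM, with 0.0595 and 0.164 CPM in control, 0 in both 3-day libraries, 0.269 and 0.159 at 6 days, and 1.74 and 1.75 in MetaICM. In read pairs these were 3 in control over both libraries, 0 at 3 days, 8 at 6 days and 75 in MetaICM. The ratio of MetaICM to control was 16.9 (95% counting interval 5.55 to 83.6), and MetaICM was at least 21.2-fold higher than 3 days, taking a floor of 3 counts over the group. Such intervals cover counting error only. Against 6 days OAS2 was 7.92-fold higher (log2 fold change 2.99, SE 0.45). The filter kept OAS2 through its MetaICM reads alone, so it could be called higher in MetaICM but not lower. OASL, an OAS relative without the synthetase activity, had 0.238 and 0.0819 CPM in control, 0 and 0.133 at 3 days, 0 in both 6-day libraries, and 0.893 and 0.612 in MetaICM. OASL was likewise kept by the filter through MetaICM alone. It too was highest in both MetaICM libraries, at least 9.27-fold above 6 days, although its call against control (log2 fold change 2.06, SE 0.65, adjusted p = 0.04) was lost without control replicate 2 (1.62, adjusted p = 0.123), MetaICM replicate 1 (1.81, adjusted p = 0.285) or MetaICM replicate 2 (2.34, adjusted p = 0.146). OAS1 had 15 read pairs over the MetaICM libraries and 2, 0 and 1 over those of control, 3 days and 6 days. With OAS1, OAS3 and OAS2 in a row on chromosome 12 (hg19 113344582 to 113449528), the gene in the middle was thus the one well expressed in control.

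The IFIT proteins bind viral RNA ends, and IFIT3 was the member of the family that changed most. IFIT3 had 9.17 and 8.77 CPM in control, 16.8 and 21.5 at 3 days, 14.9 and 17.5 at 6 days, and 16 and 18.3 in MetaICM. All ICM and MetaICM libraries lay above control, and those of 3 days, 6 days and MetaICM overlapped. Increases against control were 2.12-fold at 3 days (log2 fold change 1.08, SE 0.19, adjusted p = 0.00122), 1.79-fold at 6 days (0.84, SE 0.17, adjusted p = 0.00255) and 1.89-fold in MetaICM (0.92, SE 0.16, adjusted p = 0.00309). IFIT2 had 5.54 and 4.26 CPM in control, 6.83 and 6.11 at 3 days, 7.7 and 8.02 at 6 days, and 7.74 and 8.22 in MetaICM. It was called higher at 6 days (0.66, adjusted p = 0.0275) and in MetaICM (0.67, adjusted p = 0.0331), calls that DESeq2 did not make (adjusted p = 0.0802 and 0.0814). Without control replicate 2 its log2 fold changes were 0.51 and 0.52, below the size needed for a call. The 6-day call was also lost without either 6-day library (adjusted p = 0.108 and 0.145), and the MetaICM call without either MetaICM library (adjusted p = 0.119 and 0.219). IFIT1 and IFIT5 were not called in any comparison, with mean CPM from 14.7 to 22 and from 25.7 to 31.9 across conditions.

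Among the other antiviral effectors, the retroviral restriction factor TRIM22 and the paralogs SAMD9 and SAMD9L, which act against poxviruses, were well expressed and higher under ICM. TRIM22 had 62.9 and 61.6 CPM in control, 148 and 142 at 3 days, 169 and 188 at 6 days, and 153 and 145 in MetaICM. Its ICM and MetaICM libraries were all far above control. TRIM22 was 2.32-fold higher at 3 days (log2 fold change 1.21, SE 0.12, adjusted p = 1.46e-05), 2.85-fold at 6 days (1.51, SE 0.11, adjusted p = 3.66e-06) and 2.37-fold in MetaICM (1.24, SE 0.11, adjusted p = 8.48e-05). SAMD9 had 51 and 56.1 CPM in control, 90.7 and 110 at 3 days, 79.1 and 87.6 at 6 days, and 45.1 and 41.2 in MetaICM. SAMD9 was thus high in the ICM libraries alone, with MetaICM below control without a call (-0.33). It was 1.86-fold higher at 3 days than in control (0.90, SE 0.14, adjusted p = 0.000618) and 1.54-fold at 6 days (0.63, SE 0.12, adjusted p = 0.00239), the latter lost without control replicate 1 (0.54) or 6-day replicate 2 (0.55, adjusted p = 0.052). MetaICM was lower than 6 days by 1.94-fold (-0.96, SE 0.08, adjusted p = 2.89e-09) and lower than 3 days by 2.33-fold (-1.22, SE 0.11, adjusted p = 5.04e-07).

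SAMD9L, 12 kb from SAMD9 on chromosome 7 (hg19 92728826 to 92777698 for both genes), had mean CPM of 39.3 ± 7.62 (SD, n = 2) in control, 60 ± 4.49 at 3 days, 61.8 ± 2.46 at 6 days and 67.8 ± 1.52 in MetaICM. It was called higher against control in all 3 conditions (log2 fold changes 0.61, 0.65 and 0.78), and without control replicate 1 these were 0.41, 0.44 and 0.58 and not called. At 3 days the call was also lost without 3-day replicate 2 (0.53, adjusted p = 0.103) and under DESeq2 (0.60).

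The MX GTPases, which block viral nucleocapsids, were both highest in MetaICM. MX1 had 2.02 and 2.21 CPM in control, 1.67 and 1.99 at 3 days, 1.72 and 2.07 at 6 days, and 9.87 and 8.79 in MetaICM. Control and ICM libraries overlapped, while MetaICM stood well above all of them. In MetaICM MX1 was 4.36-fold higher than in control (log2 fold change 2.13, SE 0.22, adjusted p = 0.000258), 4.88-fold higher than at 6 days (2.29, SE 0.20, adjusted p = 3.98e-09) and 5.12-fold higher than at 3 days (2.36, SE 0.22, adjusted p = 7.32e-07). MX2 had 0.952 and 0.983 CPM in control, 2.23 and 2.73 at 3 days, 1.35 and 1.17 at 6 days, and 3.23 and 3.94 in MetaICM. MX2 was 3.66-fold higher in MetaICM than in control (1.87, SE 0.31, adjusted p = 0.00256) and 2.84-fold higher than at 6 days (1.51, SE 0.27, adjusted p = 6.53e-05). Its rise at 3 days (1.34, SE 0.37, adjusted p = 0.0166) was lost under DESeq2 (adjusted p = 0.0762) and without 3-day replicate 1 (adjusted p = 0.0559) or 2 (adjusted p = 0.11). The fall from 3 to 6 days (-0.97, adjusted p = 0.0386) was lost under DESeq2 (adjusted p = 0.159), without 3-day replicate 2 (adjusted p = 0.124) and without 6-day replicate 1 (adjusted p = 0.124) or 2 (adjusted p = 0.215). ISG20, an exonuclease, was called in 1 comparison, being lower in MetaICM than at 3 days (-0.95, adjusted p = 0.00753). RSAD2 (viperin), its neighbour CMPK2 and BST2 (tetherin) stayed at or under 19 read pairs over the libraries of any condition.

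**Figure D4:**
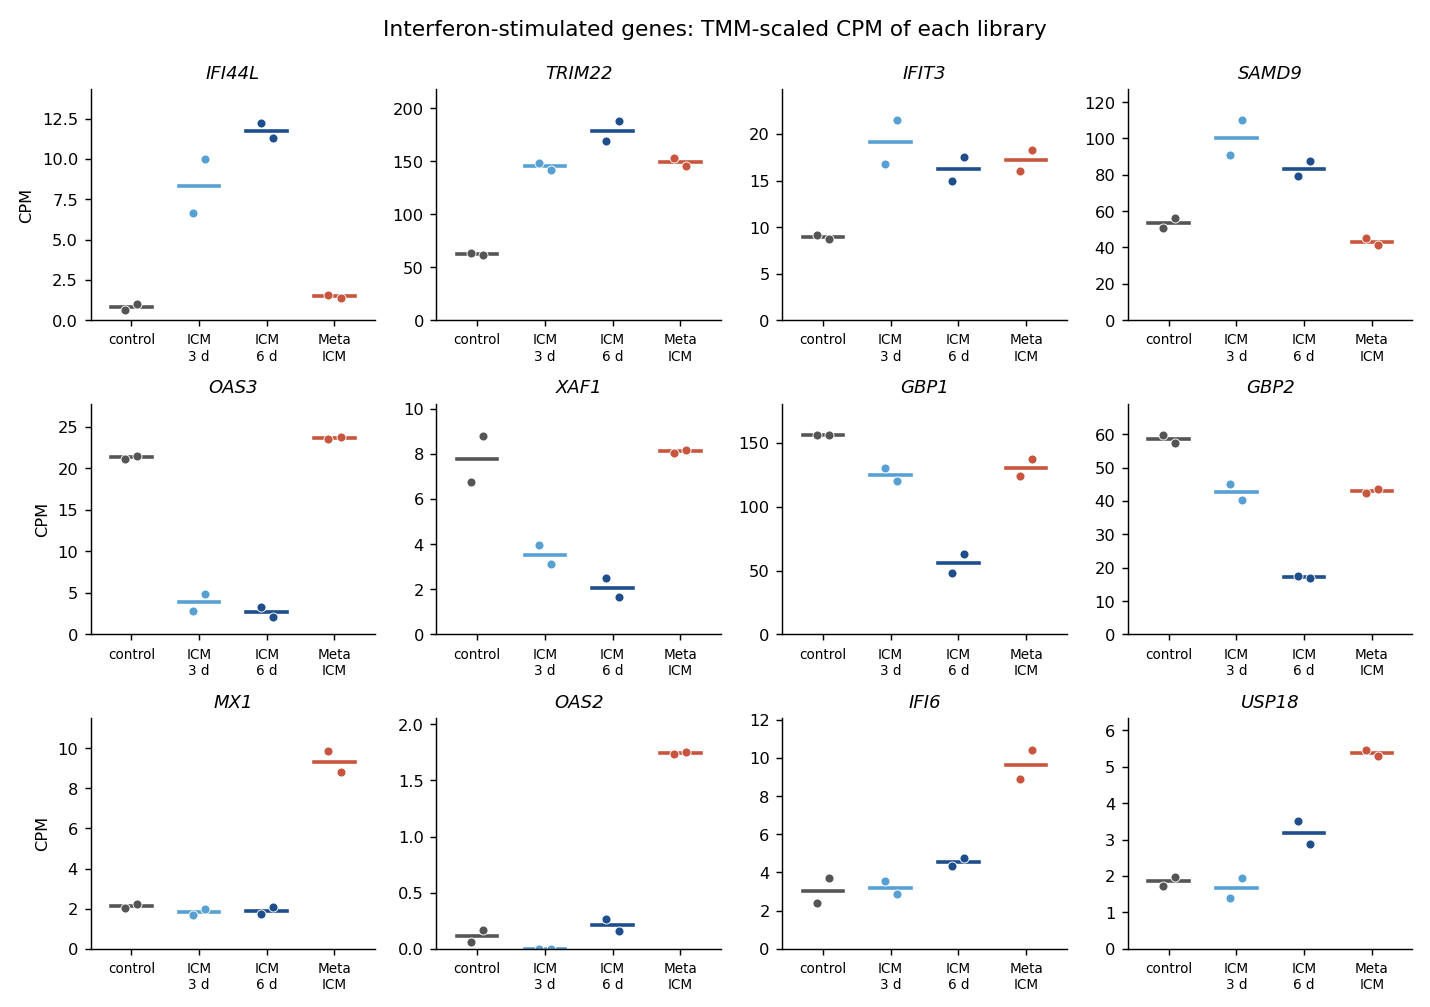
Points are the 2 libraries of each condition and bars their mean, in TMM-scaled CPM on axes that start at 0, for 12 interferon-stimulated genes. IFI44L, TRIM22, IFIT3 and SAMD9 were higher in the ICM libraries than in control, OAS3, XAF1, GBP1 and GBP2 were lower at 6 days, and MX1, OAS2, IFI6 and USP18 were highest in MetaICM.

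ISG15 is a ubiquitin-like modifier, and USP18 removes it from proteins and restrains the type I receptor. HERC5 is a ligase of the same system, and HERC6 lies next to HERC5 on chromosome 4. ISG15 had 4.82 and 3.69 CPM in control, 8.51 and 6.25 at 3 days, 6.35 and 6.27 at 6 days, and 10.5 and 12 in MetaICM. Both MetaICM libraries were above all others, and MetaICM was 2.59-fold higher than control (log2 fold change 1.37, SE 0.20, adjusted p = 0.00148) and 1.78-fold higher than 6 days (0.83, SE 0.15, adjusted p = 7.51e-05). The 3-day call of ISG15 (0.78, adjusted p = 0.0371) was lost under DESeq2 (adjusted p = 0.084), without control replicate 2 (adjusted p = 0.0965) and without 3-day replicate 1 (adjusted p = 0.329). USP18 had 1.73 and 1.97 CPM in control, 1.39 and 1.93 at 3 days, 3.5 and 2.87 at 6 days, and 5.46 and 5.29 in MetaICM. It was 2.89-fold higher in MetaICM than in control (1.53, SE 0.25, adjusted p = 0.00226), 3.29-fold higher than at 3 days (1.72, SE 0.25, adjusted p = 6.97e-05) and 1.68-fold higher than at 6 days (0.75, SE 0.20, adjusted p = 0.00324).

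USP18 was also the member called higher at 6 days than at 3 days (0.96, adjusted p = 0.0283), a call lost under DESeq2 (adjusted p = 0.121) and without 3-day replicate 1 (adjusted p = 0.151) or 6-day replicate 1 (adjusted p = 0.206). Its rise at 6 days against control (0.78, adjusted p = 0.0493) was lost under DESeq2 (adjusted p = 0.189), with all genes with a count kept (adjusted p = 0.0555), and without control replicate 1 (adjusted p = 0.148) or 6-day replicate 1 (adjusted p = 0.309) or 2 (adjusted p = 0.111). HERC5 had 0.536 and 0.246 CPM in control, 0.883 and 1.06 at 3 days, 0.269 and 0.106 at 6 days, and 0.645 and 0.262 in MetaICM. HERC5 was tested only in comparisons with 3 days, where its reads were highest. The filter kept it through its 3-day reads alone, so it could be called lower than at 3 days but not higher. Its 35 read pairs at 3 days against 7 at 6 days were called lower (-2.33, adjusted p = 0.00715), a call lost without 6-day replicate 2 (-1.83, adjusted p = 0.137), and DESeq2 gave no adjusted p. HERC6 had 4.76 and 5.73 CPM in control, 7.9 and 5.65 at 3 days, 4.63 and 6.16 at 6 days, and 8.83 and 7.87 in MetaICM. MetaICM was called higher than control (0.66, adjusted p = 0.0332) and than 6 days (0.62, adjusted p = 0.00479). Against control the call was lost under DESeq2 (adjusted p = 0.085) and without control replicate 1 (0.52), MetaICM replicate 1 (adjusted p = 0.223) or 2 (adjusted p = 0.132), and against 6 days without 6-day replicate 1 (0.42) or MetaICM replicate 1 (0.55).

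Of the RNA sensors, IFIH1 (MDA5), DDX58 (RIG-I) and EIF2AK2 (PKR) were not called in any comparison. Their mean CPM spanned 6.66 to 9.04, 70.9 to 86.5 and 82.7 to 119 across conditions. DDX60, a helicase linked to RIG-I signalling, had 42.6 and 50.6 CPM in control, 37.4 and 42.4 at 3 days, 31.1 and 30.8 at 6 days, and 63.8 and 59.4 in MetaICM. Every MetaICM library was above every other library. Relative to 6 days DDX60 was higher in MetaICM by 0.99 on the log2 scale (adjusted p = 1.8e-09), and relative to 3 days by 0.63 (adjusted p = 0.000173), the latter call lost on library totals (0.57) and without 3-day replicate 1 (0.51) or MetaICM replicate 1 (0.57). DDX60 fell by 0.60 at 6 days (adjusted p = 0.00524), just past the size needed, and was not called without control replicate 2 (-0.46), 6-day replicate 1 (adjusted p = 0.0568) or 2 (adjusted p = 0.0598), nor on library totals (-0.56), with all genes with a count (-0.57) or in 1 fit of all 8 libraries (-0.59).

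The factors of the ISRE complex changed little. STAT2 had 321 and 353 CPM in control, 418 and 387 at 3 days, 488 and 494 at 6 days, and 385 and 361 in MetaICM. It was highest in both 6-day libraries, and its log2 fold change of 0.53 at 6 days (adjusted p = 0.00351) did not reach the size needed for a call. IRF9 had 25.8 and 25.2 CPM in control, 32.6 and 31 at 3 days, 20.7 and 22.4 at 6 days, and 30.6 and 30.8 in MetaICM. The 6-day libraries of IRF9 were lowest, with -0.57 against 3 days (adjusted p = 0.00149), also under the size needed.

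IRF1 and IRF7 are factors that themselves are raised by interferon. IRF1 had 45.1 and 31.5 CPM in control, 65.5 and 55.8 at 3 days, 31.5 and 35.2 at 6 days, and 59.2 and 56.4 in MetaICM. Both 3-day and MetaICM libraries were above control and 6 days, with no overlap. IRF1 was 1.83-fold lower at 6 than at 3 days (log2 fold change -0.87, SE 0.11, adjusted p = 1.27e-05) and 1.73-fold higher in MetaICM than at 6 days (0.79, SE 0.08, adjusted p = 9.13e-08). The rise at 3 days against control (0.65, SE 0.17, adjusted p = 0.0128) was lost without control replicate 2 (0.41) or 3-day replicate 1 (0.54, adjusted p = 0.13), the control libraries being far apart. IRF7 had 15.8 and 11.8 CPM in control, 18.9 and 15.3 at 3 days, 10.4 and 10.1 at 6 days, and 14.9 and 15.8 in MetaICM. It was 1.68-fold lower at 6 than at 3 days (-0.74, SE 0.15, adjusted p = 0.00128), and -0.59 without 3-day replicate 1, just under the size needed.

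PARP9 and DTX3L, which form a complex, and PARP14 lie on chromosome 3, PARP9 and DTX3L with overlapping ends on opposite strands (hg19 122246771 to 122294049). Because reads were counted without strand and 175 exon bases are shared, reads from that overlap could not be given to either gene. PARP9 had 28.5 and 35.6 CPM in control, 34.9 and 35.1 at 3 days, 23 and 25.3 at 6 days, and 38 and 36.9 in MetaICM. It was called in 1 comparison, being higher in MetaICM than at 6 days (0.62, adjusted p = 5.49e-06), and at 0.55 was not called without 6-day replicate 1. DTX3L and PARP14 were not called, with mean CPM of 40.3 to 56.2 and 158 to 185 across conditions.

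IFI44L, an antiviral gene of unclear mechanism, showed the steepest rise of all members under ICM. It had 0.655 and 0.983 CPM in control, 6.65 and 9.97 at 3 days, 12.2 and 11.3 at 6 days, and 1.59 and 1.36 in MetaICM. The ICM libraries were far above both other conditions, and MetaICM was above control without a call (0.86, adjusted p = 0.132). IFI44L was 10.2-fold higher at 3 days (log2 fold change 3.35, SE 0.36, adjusted p = 2.21e-05) and 14.5-fold higher at 6 days (3.85, SE 0.27, adjusted p = 2.17e-06). MetaICM was 7.99-fold lower than 6 days (-3.00, SE 0.20, adjusted p = 3.37e-11) and 5.6-fold lower than 3 days (-2.48, SE 0.26, adjusted p = 3.35e-06). Its neighbour IFI44 starts 3643 bases past the end of IFI44L (hg19 chromosome 1, 79086133 to 79129763 for both genes) and moved far less, from mean CPM of 3.86 ± 0.355 (SD, n = 2) in control to 6.59 ± 0.178 at 3 days and 6.23 ± 0.855 at 6 days. IFI44 was called at 3 days (0.76, adjusted p = 0.0325) and 6 days (0.67, adjusted p = 0.0337), but not by DESeq2 (adjusted p = 0.0958 and 0.109). The 3-day call of IFI44 was lost without control replicate 2 (adjusted p = 0.0826) or either 3-day library (adjusted p = 0.122 and 0.119), and the 6-day call without either 6-day library (adjusted p = 0.265 and 0.0683).

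IFI6, a mitochondrial and endoplasmic reticulum protein that restrains apoptosis, was, like MX1, highest in MetaICM. IFI6 had 2.38 and 3.69 CPM in control, 3.53 and 2.86 at 3 days, 4.31 and 4.78 at 6 days, and 8.88 and 10.4 in MetaICM. MetaICM was above all other libraries, 3.21-fold over control (log2 fold change 1.68, SE 0.24, adjusted p = 0.00137), 2.12-fold over 6 days (1.08, SE 0.17, adjusted p = 1.29e-05) and 2.98-fold over 3 days (1.58, SE 0.19, adjusted p = 1.58e-05). XAF1, which antagonises the apoptosis inhibitor XIAP, went the other way from IFI44L. It had 6.73 and 8.77 CPM in control, 3.95 and 3.12 at 3 days, 2.48 and 1.65 at 6 days, and 8.04 and 8.18 in MetaICM. XAF1 was 2.17-fold lower at 3 days (-1.12, SE 0.26, adjusted p = 0.00654), 3.76-fold lower at 6 days (-1.91, SE 0.27, adjusted p = 0.000331) and 3.92-fold higher in MetaICM than at 6 days (1.97, SE 0.21, adjusted p = 7.54e-08). EPSTI1 had 5.3 and 5.33 CPM in control, 4.09 and 4.59 at 3 days, 2.15 and 2.34 at 6 days, and 5.31 and 6.69 in MetaICM. EPSTI1 was lowest in both 6-day libraries, 2.38-fold below control (-1.25, SE 0.24, adjusted p = 0.0021) and 2.67-fold below MetaICM (1.42 for MetaICM against 6 days, SE 0.21, adjusted p = 9.95e-06). Its fall from 3 to 6 days (-0.95, adjusted p = 0.0117) was lost under DESeq2 (adjusted p = 0.0516) and without 6-day replicate 1 (-0.88, adjusted p = 0.0908).

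IFI35 was called higher against control at 3 days (0.91, adjusted p = 0.00443), at 6 days (0.60, adjusted p = 0.027) and in MetaICM (0.77, adjusted p = 0.0117), from a mean of 7.43 CPM in control to 14.1, 11.4 and 12.8. Its 6-day call was lost without control replicate 2 (0.48), without 6-day replicate 1 (adjusted p = 0.0554) or 2 (0.47, adjusted p = 0.247), with at least 10 counts required in every library (0.60) and under DESeq2 (adjusted p = 0.0633), and the MetaICM call without MetaICM replicate 2 (adjusted p = 0.146). IFI27 had 9 to 23 read pairs over the libraries of a condition and was tested in 1 comparison, without a call.

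Guanylate-binding proteins are GTPases that attack pathogen-containing vacuoles and respond strongly to interferon gamma, and both members fell late under ICM. GBP1 had 156 and 156 CPM in control, 130 and 120 at 3 days, 48.5 and 62.7 at 6 days, and 124 and 137 in MetaICM. GBP2, 40.9 kb away on chromosome 1 (hg19 89518004 to 89591797 for both genes), had 59.6 and 57.3 in control, 45.2 and 40.4 at 3 days, 17.4 and 16.8 at 6 days, and 42.5 and 43.7 in MetaICM. For both genes the 6-day libraries were lowest, control was highest, and 3 days and MetaICM overlapped in between. At 6 days GBP1 was 2.83-fold lower than in control (log2 fold change -1.50, SE 0.14, adjusted p = 1.47e-05) and GBP2 3.45-fold lower (-1.79, SE 0.13, adjusted p = 2.13e-06). At 6 against 3 days they were 2.26-fold (-1.18, SE 0.11, adjusted p = 3.01e-07) and 2.52-fold lower (-1.33, SE 0.11, adjusted p = 1.15e-07). MetaICM was higher than 6 days by 2.34-fold for GBP1 (1.23, SE 0.09, adjusted p = 5.51e-10) and 2.52-fold for GBP2 (1.33, SE 0.09, adjusted p = 6.97e-11).

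MHC class I molecules show peptides of intracellular proteins on the cell surface: HLA-B, HLA-C and HLA-E are heavy chains, B2M is their shared light chain, and TAP1 is part of the peptide transporter. B2M had 131 and 127 CPM in control, 89.9 and 63.5 at 3 days, 81.8 and 73.5 at 6 days, and 186 and 221 in MetaICM. The order was ICM, control, MetaICM, with no overlap between these 3 levels. B2M was 1.69-fold lower at 3 days (log2 fold change -0.76, SE 0.16, adjusted p = 0.00335) and 1.68-fold lower at 6 days (-0.75, SE 0.11, adjusted p = 0.000441). MetaICM was 1.56-fold higher than control (0.64, SE 0.12, adjusted p = 0.00395) and 2.61-fold higher than 6 days (1.39, SE 0.09, adjusted p = 1.21e-11). Without 3-day replicate 2 the 3-day fall was -0.53 (adjusted p = 0.0754), and without MetaICM replicate 2 the rise over control was 0.53 (adjusted p = 0.104), neither of them called.

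HLA-B had 168 and 118 CPM in control, 95.2 and 82 at 3 days, 74.7 and 73.4 at 6 days, and 187 and 203 in MetaICM. Its control libraries were far apart but above all ICM libraries. HLA-B was 1.95-fold lower at 6 days than in control (log2 fold change -0.96, SE 0.15, adjusted p = 0.000614) and 2.63-fold higher in MetaICM than at 6 days (1.39, SE 0.07, adjusted p = 1.11e-12). At 3 days it was 1.62-fold lower (-0.70, SE 0.16, adjusted p = 0.00665), a call lost without control replicate 1 (-0.43) or 3-day replicate 2 (-0.59, adjusted p = 0.0654), and the 0.43 of MetaICM against control was not called. HLA-C had 101 and 70.8 CPM in control, 73.6 and 68.9 at 3 days, 62.7 and 67.4 at 6 days, and 115 and 123 in MetaICM. Control overlapped 3 days and MetaICM was above all, 1.83-fold over 6 days (0.87, SE 0.08, adjusted p = 3.71e-09) and 1.67-fold over 3 days (0.74, SE 0.08, adjusted p = 7.59e-06). HLA-E, the non-classical ligand of natural killer receptors, had 126 and 95.1 CPM in control, 138 and 127 at 3 days, 148 and 148 at 6 days, and 154 and 162 in MetaICM. It was not called in any comparison, and at 6 days its log2 fold change against control was 0.41, on the other side of 0 from those of HLA-B and HLA-C (-0.96 and -0.42). The difference between these genes was not tested.

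TAP1 had 23.8 and 16.8 CPM in control, 31.1 and 23.1 at 3 days, 23.2 and 19.5 at 6 days, and 44.2 and 38.5 in MetaICM. It was 2-fold higher in MetaICM than in control (log2 fold change 1.00, SE 0.16, adjusted p = 0.00253) and 1.93-fold higher than at 6 days (0.95, SE 0.10, adjusted p = 7.89e-08). Its 0.60 against 3 days did not pass the size needed for a call. The class I heavy chains are near-identical over long stretches and highly variable between people, so reads could be split between them by the aligner, and HLA-B, HLA-C, HLA-E and TAP1 are also annotated on alternative chromosome 6 sequences. TAP1 shares 456 of its 3119 exon bases with PSMB8-AS1, and reads there were not assigned.

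**Figure D5:**
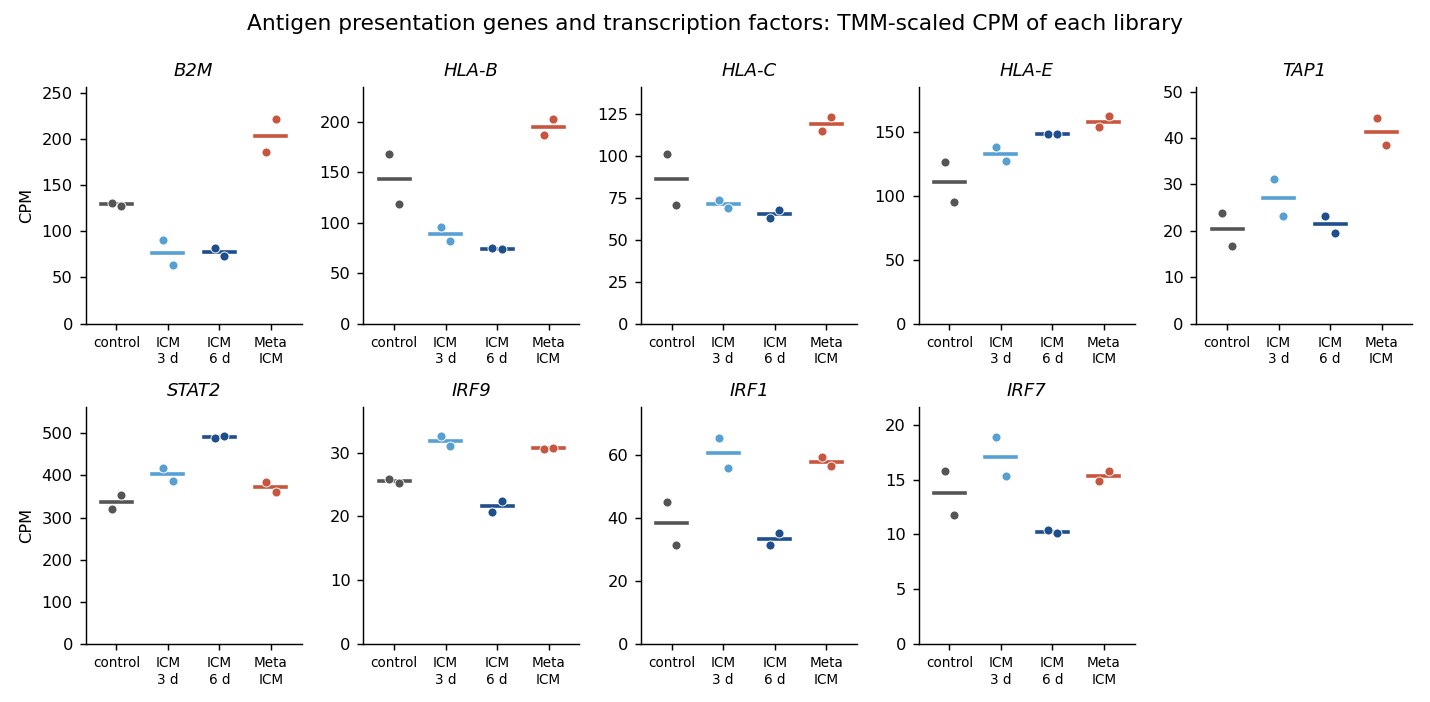
Points are the 2 libraries of each condition and bars their mean, in TMM-scaled CPM on axes that start at 0, for 5 antigen presentation genes (top row) and 4 transcription factors (bottom row). B2M and HLA-B were lowest in the ICM libraries and highest in MetaICM, HLA-E was not called in any comparison, and IRF1 was high at 3 days and in MetaICM.

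Per kilobase of exon, the scale on which genes can be compared, the most abundant members in control were HLA-B (93 CPM per kb), B2M (77.1), STAT2 (76.5), HLA-C and GBP1 (both 54.2). In MetaICM HLA-B and B2M reached 127 and 122 CPM per kb. At 6 days STAT2 was the most abundant member (111 CPM per kb), ahead of TRIM22 (61.9), HLA-E (58.2), HLA-B (48.2) and B2M (46.4). IFI44L, in spite of its steep rise, reached 2 CPM per kb at 6 days, and OAS2 0.285 in MetaICM.

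Among 21 interferon ligand genes, few had reads enough for a test. Of these, IFNE, an epithelial type I interferon, was the one tested in every comparison. IFNE had 9.46 and 8.03 CPM in control, 3.81 and 5.85 at 3 days, 4.52 and 5.26 at 6 days, and 2.33 and 1.49 in MetaICM. It was lowest in MetaICM, where most members were highest, at 4.68-fold below control (log2 fold change -2.23, SE 0.25, adjusted p = 0.000403). It was also lower at 3 days (-0.89, adjusted p = 0.0216) and 6 days (-0.85, adjusted p = 0.00685), calls lost without 3-day replicate 1 (-0.59, adjusted p = 0.239) and 6-day replicate 1 (-0.74, adjusted p = 0.0844). IFNB1 stayed at or under 0.159 CPM in every library and IFNG was at 0 in all 8. IFNA1, tested in MetaICM against 6 days alone, had 2 read pairs in MetaICM and 20 at 6 days. It was called lower in MetaICM, a call lost without MetaICM replicate 2 (-2.35). The filter kept IFNA1 through its 6-day reads alone, so it could not have been called higher in MetaICM.

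Of 13 genes of the receptors, JAK kinases, STATs and their feedback inhibitors, 12 were tested. IL10RB, a chain of the type III receptor, was among the 2 of these 12 higher at 6 days than in control, against 13.3% of all genes. It rose by 0.66 on the log2 scale (adjusted p = 0.00515), lost without 6-day replicate 1 (0.58, adjusted p = 0.0962). SOCS1, a feedback inhibitor of JAK signalling, had 3.33 and 3.2 CPM in control, 1.67 and 1.93 at 3 days, 2.64 and 1.7 at 6 days, and 5.16 and 4.2 in MetaICM. SOCS1 was 2.6-fold higher in MetaICM than at 3 days (1.38, SE 0.25, adjusted p = 0.000496) and 2.14-fold higher than at 6 days (1.10, SE 0.24, adjusted p = 0.000593). Its 3-day call against control (-0.87, adjusted p = 0.0471) was lost without any 1 of the 4 libraries (adjusted p = 0.106, 0.0646, 0.279 and 0.115), on library totals (adjusted p = 0.0662) and under DESeq2 (adjusted p = 0.171).

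Among 20 sensing genes and kinases listed, 18 were in the tables and 15 were tested. Against control, 3 were higher and 2 lower at 3 days, where 8.85% and 13.2% of all genes were. At 6 days 3 were higher and 1 lower, beside 13.3% and 17.2% of all genes. TBK1 and IRF3, the kinase and factor that switch on interferon genes, rose against control at both ICM times. Their log2 fold changes at 3 and 6 days were 0.74 and 0.64 for TBK1 and 0.70 and 0.70 for IRF3, the 6-day call of TBK1 being lost without 6-day replicate 1 (0.57) and the 3-day call of IRF3 without 3-day replicate 1 (0.55, adjusted p = 0.106). The DNA sensor CGAS was lower at 3 days (-0.80, adjusted p = 0.0094) and 6 days (-0.79, adjusted p = 0.0044), calls lost without 3-day replicate 1 (adjusted p = 0.0623) or 2 (adjusted p = 0.0589) and 6-day replicate 1 (adjusted p = 0.0625). In MetaICM 1 gene of the 15 was higher than control, a share near that of all genes (7.41%). It was SAMHD1, a nucleotide-depleting restriction factor (0.69, adjusted p = 0.00271). Without MetaICM replicate 2 SAMHD1 was at 0.70 and not called.

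Of 35 other interferon-stimulated genes, 4 of 26 tested were higher and 1 lower at 3 days, 3 of 27 higher and 4 lower at 6 days, and 5 of 27 higher and 0 lower in MetaICM, each against control. The shares at 6 days were at or under those of all genes (13.3% higher and 17.2% lower), and those of all genes at 3 days were 8.85% and 13.2% and in MetaICM 7.41% and 8.99%. For that 0, edgeR gave 3 decreases at an unadjusted p under 0.05 and DESeq2 called 0. UBE2L6, the conjugating enzyme of ISG15, was higher in all of them, at 1.16 (adjusted p = 0.000723), 0.83 (adjusted p = 0.00448) and 1.14 (adjusted p = 0.00213) on the log2 scale, with the 6-day call lost without 6-day replicate 2 (0.74, adjusted p = 0.0524). TRIM5, a capsid-binding restriction factor, rose at 3 days (0.73, adjusted p = 0.00103) and 6 days (1.11, adjusted p = 3.78e-05). APOL1 fell at 6 days (-2.39, SE 0.47, adjusted p = 0.00238), from 5.12 and 14.5 CPM in control to 1.35 and 2.34. The membrane proteins IFITM2 (0.82, adjusted p = 0.00703) and IFITM3 (0.95, adjusted p = 0.00192), paralogs that can share reads, were higher in MetaICM than in control, IFITM2 not without MetaICM replicate 2 (0.60, adjusted p = 0.137). The chemokine genes CXCL9, CXCL10 and CXCL11 had at most 0.437 CPM in any library.

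Among 30 other antigen presentation genes, 24 were tested against control. At 3 days 2 were higher and 1 lower, at 6 days 3 were higher and 3 lower, and in MetaICM 5 were higher and 0 lower (2 decreases at an unadjusted p under 0.05 by edgeR, 0 called by DESeq2). Against the shares of all genes just given, the higher calls at 3 and 6 days were about at the background. Of the 5 higher in MetaICM, 4 were immunoproteasome or proteasome activator subunits, among them PSMB9 (log2 fold change 1.32, SE 0.23, adjusted p = 0.00345), PSMB10 (0.71, adjusted p = 0.015) and PSME1 (0.71, adjusted p = 0.00343). PSMB9 had 2.32 and 2.21 CPM in control, 2.19 and 3.32 at 3 days, 1.83 and 1.7 at 6 days, and 5.51 and 5.95 in MetaICM, so that it was highest in both MetaICM libraries, as TAP1 was. The call of PSMB10 was lost without control replicate 2 (0.50) or MetaICM replicate 2 (adjusted p = 0.14), and that of PSME1 without MetaICM replicate 2 (adjusted p = 0.0603). ERAP1, the peptide-trimming protease, fell at 3 days (-0.64, SE 0.13, adjusted p = 0.00316) and 6 days (-0.69, SE 0.11, adjusted p = 0.000817). Its 3-day call was lost on library totals (-0.56) and without control replicate 1 (-0.59) or 3-day replicate 1 (-0.54). NLRC5, the transactivator of class I genes, had 61.4 and 59.6 CPM in control, 70.6 and 64.3 at 3 days, 38 and 39.5 at 6 days, and 51.1 and 51 in MetaICM, and fell at 6 days by 0.66 (adjusted p = 0.00136).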

How the data were processed

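Factory RNA-Seq libraries (8, 2 for each of 4 conditions) were analysed from the deposited tables of raw counts per gene. The authors aligned read pairs with STAR to GRCh37 and counted them over RefSeq exons with featureCounts, without strand, leaving out pairs that fell on more than 1 gene; the study itself analysed intronic RNA. Each comparison was fitted with edgeR 4.0.16 (R 4.3.3; quasi-likelihood test, TMM, filterByExpr at a count minimum of 10) on the 4 libraries it concerns, and p-values were adjusted by Benjamini-Hochberg over all 15692 to 16209 genes tested. Calls needed an adjusted p under 0.05 and a log2 fold change over 0.6 in size. Alternatives were other scalings, filters and thresholds, DESeq2 1.42.0, a fit of all libraries, a replicate block and each library left out. The fit was tested on simulated data. The members and lists were chosen with earlier results of these data known. All members were named, and pathway genes were named from fixed lists. Replicates correlated at 0.988 to 0.996. Totals of 12095123 to 23166405 pairs limit precision for members under about 10 counts. Some genes of the pathway lists are not reported here.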

Additional observations from a re-analysis of the deposited data

How the results depend on the processing

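No member call reversed its direction under any alternative, and 62 of the 90 held in every alternative fit that gave an adjusted p, the stricter threshold apart. DESeq2 gave no adjusted p for OAS2 and OASL in MetaICM against control or for HERC5 at 6 against 3 days. With 1 library left out, members called higher ranged from 6 to 10 at 3 days against control, 4 to 9 at 6 days, 0 to 2 at 6 against 3 days, and 10 to 17, 19 to 22 and 12 to 13 in MetaICM against control, 6 days and 3 days. Members called lower ranged from 2 to 4, 7 to 9, 6 to 7, 0 to 0, 2 to 2 and 3 to 4 in the same order, and medians from 0.17 to 0.30, 0.04 to 0.18, -0.24 to -0.17, 0.39 to 0.58, 0.55 to 0.62 and 0.13 to 0.24. In these fits the lone library was assumed to vary like the other group. At an adjusted p under 0.01, 5, 5 and 0 members were higher at 3 days, at 6 days and at 6 against 3 days, and DESeq2 gave 6, 5 and 0, with 4 lower at 6 against 3 days. One fit of all 8 libraries gave 2 higher at 6 against 3 days and a median of 0.60 for MetaICM against 6 days. Library totals gave medians of 0.33 and 0.09 at 3 and 6 days against control and 0.50, 0.56 and 0.06 in MetaICM against control, 6 days and 3 days. All genes with a count gave 0.19, 0.07, 0.56, 0.69 and 0.28 in that order, and at least 10 counts in every library gave 0.45 for MetaICM against control. The cause of these shifts was not tested.

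Replicate numbers in the labels marked no shared culture or day, and the deviations of same-numbered libraries correlated at -0.137 to 0.229 over 16591 genes. With the replicate number as a block, 10 members were higher and 4 lower at 3 days, 8 and 7 at 6 days, 1 and 8 at 6 against 3 days, and 15 and 0, 20 and 2, and 13 and 3 in MetaICM against control, 6 days and 3 days, with a median of 0.49 in MetaICM against control. The block ended the 6-day calls of DDX60 (-0.60) and IFI35 (0.60) and no other member call. The crossed pairing of MetaICM and 3 days, chosen after seeing the data, gave 12 higher and 4 lower.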
